A study of Mus musculus with 4 samples.

Results

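The 10 core genes of the circadian clock were examined for open chromatin in visceral adipose tissue, among 21000 protein-coding genes with a curated RefSeq start site. They were the activators Arntl (also written Bmal1), Clock and Npas2, the repressors Per1, Per2, Per3, Cry1 and Cry2, and the nuclear receptors Nr1d1 and Nr1d2, which encode REV-ERB alpha and REV-ERB beta. The genes were chosen by name, and their peaks were those within 500 bp of a curated start site and those from 20 kb upstream of the first start site to the gene end. ATAC-seq, in which a transposase cuts accessible DNA, had been run on 4 mice of the outbred CD-1 stock aged 8 weeks, 2 per group. Control mice came down from females injected with sesame oil while pregnant. BPA mice came down from females given bisphenol A, a plasticiser, daily at 50 mg/kg into the peritoneum, with embryonic days 7.5 and 13.5 as the first and last, and the animals sampled were not dosed themselves. No siblings were bred in either line. The labels name the treated line BPAF3 and the methods name the F4 generation, so the sources differ on the generation. All mice were kept on a light-dark cycle, but the hour at which tissue was taken, the sex of the animals and any batch were not given in the sources used here.

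The clock of mammalian cells is a feedback loop of transcription. ARNTL pairs with CLOCK, or with its paralogue NPAS2, and the pair binds E-boxes in the genes of the PER and CRY proteins, which then repress it. REV-ERB proteins, themselves products of E-box genes, repress Arntl through elements they share with the ROR receptors, and proteins such as DBP and NFIL3 act on D-boxes. In adipose tissue the loop runs in adipocytes and in the other cells of the tissue, and the transcription of its output genes depends on the hour.

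The peak lists held 72375 to 98060 peaks per library. They differed in peak height. A peak summit typically (median) held 22 and 23 overlapping reads in the controls and 19 and 38 in BPA 1 and BPA 2. Peaks were therefore compared by rank within their own list, as the percent of the list at or above a peak's −log10 q-value, so that a low rank is a strong peak. Pairs of values are given in the order of the library numbers. Promoters of all 7 adipocyte genes checked, among them Adipoq, Pparg and Cebpa, held a peak in every library. Their ranks were uneven, as for Adipoq, at 58.6% and 20.3% in the controls and 67.2% and 51.2% in BPA. Of the 7, 2 (Pparg and Cebpa) ranked better in both BPA libraries, against 40.7% of all coding promoters open in every library. Promoters of the 3 hepatocyte genes (Alb, Apoa1 and Ttr) held none. Of 10 endothelial genes, 5, 3, 10 and 10 were open in Control 1, Control 2, BPA 1 and BPA 2. Over all coding genes 62.6%, 61.4%, 64.1% and 67.4% were open in the same order. Of the 10, 5 (Pecam1, Cdh5, Tie1, Erg and Egfl7) were open in both BPA libraries and neither control. The like share over all coding promoters was not computed. Leukocyte genes were open in 2, 3, 3 and 3 of 6, mesothelial genes in 2, 2, 2 and 1 of 3, and epithelial genes in 2, 0, 2 and 2 of 3. In a bulk tissue, more cells of a type and a more open site in each cell cannot be told apart.

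Promoter sequences are shown for the members whose window held one of the clock motifs searched for. Windows of 250 bases before to 50 bases after a start site were read from RefSeq on GRCm38.p6, the assembly that mm10 names, for 9 of the 10 genes, Per2 excepted. The motifs, searched on both strands, were the E-box CACGTG, its variant CACGTT, the D-box (TTATGTAA, TTACGTAA or TTATATAA), the cyclic AMP response element TGACGTCA and the ROR/REV-ERB element. The E-box, its variant, the cyclic AMP response element and 1 of the D-box spellings share the core ACGT. Capitals mark the matches, and each line is the 250 bases that end just before the start site, 5′ to 3′ on the strand of the gene. Per1 lies on the plus strand at chr11:69098699-69098948. The other 4 lie on the minus strand, with Per3 at chr4:151044666-151044915, Cry1 at chr10:85185055-85185304, Cry2 at chr2:92434070-92434319 and Nr1d1 at chr11:98775378-98775627.
Per1: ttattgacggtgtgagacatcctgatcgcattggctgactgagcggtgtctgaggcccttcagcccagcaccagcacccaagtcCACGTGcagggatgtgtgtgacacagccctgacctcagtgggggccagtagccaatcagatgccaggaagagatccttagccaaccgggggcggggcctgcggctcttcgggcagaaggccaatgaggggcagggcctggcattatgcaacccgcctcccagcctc
Per3: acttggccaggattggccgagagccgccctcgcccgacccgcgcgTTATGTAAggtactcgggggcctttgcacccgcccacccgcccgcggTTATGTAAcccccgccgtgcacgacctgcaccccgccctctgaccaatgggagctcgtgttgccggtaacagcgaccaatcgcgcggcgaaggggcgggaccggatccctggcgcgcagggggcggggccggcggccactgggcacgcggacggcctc
Cry1: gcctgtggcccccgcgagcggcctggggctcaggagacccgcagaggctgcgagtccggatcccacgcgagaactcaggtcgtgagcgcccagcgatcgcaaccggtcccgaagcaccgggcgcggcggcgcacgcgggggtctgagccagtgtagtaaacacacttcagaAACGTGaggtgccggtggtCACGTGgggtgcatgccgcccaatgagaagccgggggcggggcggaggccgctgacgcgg
Cry2: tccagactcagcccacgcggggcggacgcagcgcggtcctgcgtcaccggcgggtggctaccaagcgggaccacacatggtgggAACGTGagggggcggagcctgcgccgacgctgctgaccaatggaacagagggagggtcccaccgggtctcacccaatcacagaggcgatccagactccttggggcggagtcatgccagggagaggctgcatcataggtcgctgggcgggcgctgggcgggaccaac
Nr1d1: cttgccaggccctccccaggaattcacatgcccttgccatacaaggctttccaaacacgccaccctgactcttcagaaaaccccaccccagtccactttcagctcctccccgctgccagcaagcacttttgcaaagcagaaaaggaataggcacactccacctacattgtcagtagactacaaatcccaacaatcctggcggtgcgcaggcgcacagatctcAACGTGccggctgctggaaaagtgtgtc

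An E-box stood at −166 in Per1 and at −60 in Cry1, counted from the start site to the first base of the match. The variant stood at −79 in Cry1, at −166 in Cry2 and at −28 in Nr1d1. Per3 held 2 D-boxes, at −205 and −158. Among 32817 promoter windows of all genes, 7.15% held an E-box, 4.69% the variant, 1.58% a D-box, 1.79% a cyclic AMP response element and 0.384% a ROR/REV-ERB element. The matches are descriptions of the sequence, not measured binding sites. The only ROR/REV-ERB element in these windows lay in Arntl, 26 bases past the second of its start sites, on the plus strand at chr7:113207527-113207556, and is shown because REV-ERB proteins are known to repress this gene.
Arntl: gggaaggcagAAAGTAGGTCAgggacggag

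The promoters of 9 of the 10 genes held a peak in all 4 libraries, against 57.9% of all coding genes. Npas2 was the exception, without a peak at its start site in Control 1. Several of these promoters were among the stronger sites of the tissue. Peaks of Arntl and Nr1d2 lay in the best 5% of every list, and in the controls the weakest were Per1 and Npas2. The median rank of the members was 5.79% and 15.01% in the controls and 5.28% and 4.76% in BPA. Over all coding genes with a promoter peak it was 9.55%, 10.9%, 9.53% and 7.08% in the same order. By fold over the local background the order was different, since the median of the members, 5.58, 5.31, 7.67 and 6.84, was below that of all open coding promoters, 6.03, 6.84, 10.3 and 9.39, in each library.

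**Figure D1:**
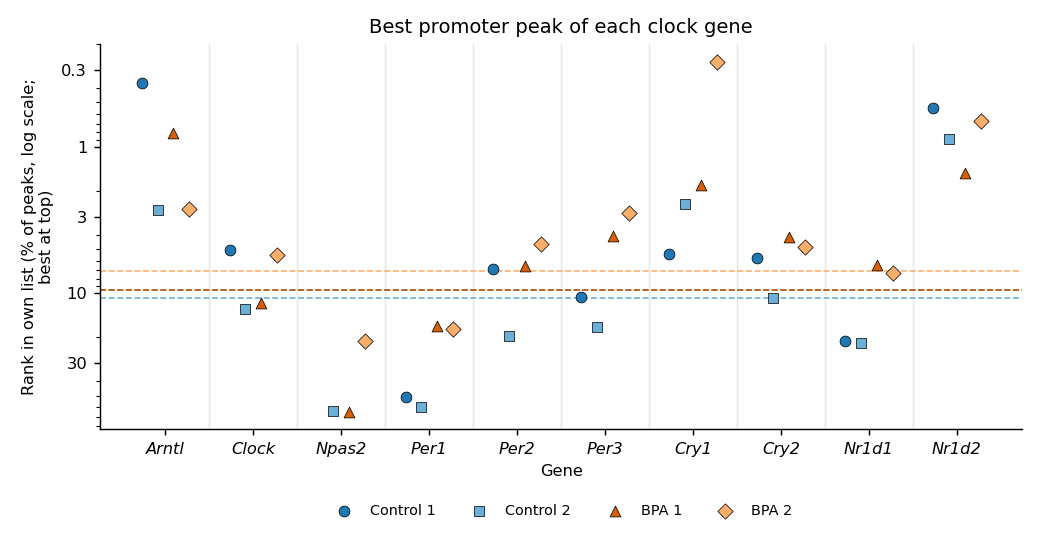
Rank of the best promoter peak of each clock gene in its own list, as a percent of the peaks of that list, on a log axis with the best rank at the top. Each point is 1 library, dashed lines are the medians over all coding genes with a promoter peak, and Npas2 has no point for Control 1. For Per1, Per2, Per3, Cry1, Cry2 and Nr1d1 both BPA points lie above both control points.

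Arntl, the shared partner of both activators, had 1 peak over its start sites in each library. Its rank was 0.370% and 2.73% in the controls and 0.807% and 2.66% in BPA, so the groups overlapped and the best value was in a control. The summit held 129, 98, 192 and 459 reads in the same order. Clock, a partner of ARNTL that also acts as a histone acetyltransferase, ranked 5.08% and 12.9% in the controls and 11.7% and 5.48% in BPA. The spread within each group covered the other group. A single peak in each library served its 3 start sites, covering 2 of them and beginning within 500 bp of the other, and the RefSeq annotation puts the start of another gene, Gm7467, in the same region.

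Npas2, the paralogue that can stand in for Clock, differed from the other members. A stronger site lay upstream, with its summit at −1519 bp in Control 1, −1516 bp in Control 2 and BPA 1, and −1415 bp in BPA 2. That site ranked 15.3% and 11.0% in the controls and 31.9% and 21.3% in BPA, so both controls were ahead of both BPA libraries there. Nearer the start site, a peak that ended short of it ranked 63.6% in Control 2, a peak across it ranked 64.5% in BPA 1, and none was found in Control 1. In BPA 2 a single peak of 2007 bp covered both places, so its rank of 21.3% belongs to the upstream summit. With promoters of 1000 bp either side the upstream site counts as the promoter peak, and Npas2 then had a peak in every library with both controls ahead.

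Per1, which responds within the hour to light and hormone signals in many tissues, had the widest gap between the groups. It ranked 51.3% and 59.5% in the controls and 16.6% and 17.5% in BPA. The means were 55.4 ± 5.82% in controls and 17.0 ± 0.589% in BPA (SD, n = 2), a difference larger than either spread. The fold was low in all 4 libraries, at 2.43, 2.54, 3.605 and 2.68, over a local background of 19.97, 16.3, 32.3 and 118 reads. That background was the highest of any member in Control 1, Control 2 and BPA 2. Within 500 bp of the second start site, farther downstream, the same peak was found in both BPA libraries, a separate peak ranked 79.2% in Control 2 and none in Control 1. The peak of BPA 2 alone reached that site.

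Per2, whose loss is known to disturb daily rhythms of mice, ranked 6.83% and 19.5% in the controls and 6.50% and 4.65% in BPA. Both BPA libraries were ahead, but Control 1 and BPA 1 were close. The means of 13.1 ± 8.94% and 5.58 ± 1.31% (SD, n = 2) differed by less than the spread of the controls. The summit lay at −112, −73, −68 and −73 bp from the start site, nearly the same place in each library.

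Per3, the least essential of the PER genes, ranked 10.5% and 17.1% in the controls and 4.06% and 2.84% in BPA. The means were 13.8 ± 4.66% and 3.45 ± 0.858% (SD, n = 2), and the difference was larger than either spread. The fold was 5.75 and 5.77 in the controls and 11.7 and 9.89 in BPA. The summit lay at −234 bp in Control 1 and −198 bp in Control 2, beside the D-boxes printed above, and at +92 and +1 bp in BPA 1 and BPA 2, so that the highest point of the peak was on different sides of the start site in the groups.

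Cry1, the stronger repressor of the CRY pair, had the best rank of any member in any library. It ranked 5.41% and 2.46% in the controls and 1.82% and 0.263% in BPA, and its fold was 5.58, 8.13, 13.6 and 11.5. Both BPA libraries were ahead of both controls, with means of 3.94 ± 2.09% and 1.04 ± 1.10% (SD, n = 2). The E-box at −60 and the variant at −79 lay inside the peak in each library. Cry2 ranked 5.79% and 10.8% in the controls and 4.16% and 4.86% in BPA. Its means of 8.29 ± 3.53% and 4.51 ± 0.496% (SD, n = 2) differed by little more than the spread of the controls.

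Nr1d1, a direct target of the activators, ranked 21.1% and 21.9% in the controls and 6.39% and 7.26% in BPA. The means were 21.5 ± 0.601% and 6.83 ± 0.616% (SD, n = 2), far apart for their spread. The shape of the site differed as well. Each control had a peak over the start site, with its summit at −212 bp in Control 1 and −94 bp in Control 2, and a second peak in intron 1 that ranked 27.6% and 15.6%. In both BPA libraries 1 peak of 2337 and 2891 bp covered both places, with its summit at +1393 bp, the base at which the intron peaks of both controls also had theirs. The BPA ranks thus belong to the summit in the intron, which ranked better in both BPA libraries than the intron peaks of both controls. When a summit within 500 bp of the start site was required, Nr1d1 had no promoter peak in either BPA library. Nr1d2, the second REV-ERB, ranked 0.549% and 0.892% in the controls and 1.51% and 0.669% in BPA, with the groups overlapping and all 4 values in the best 2% of their lists.

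Across the 9 promoters with a peak in every library, 6 ranked better in both BPA libraries than in either control (Per1, Per2, Per3, Cry1, Cry2 and Nr1d1) and 0 ranked better in both controls. Over all 12166 such promoters of coding genes these shares were 40.7% and 18.7%. The groups overlapped for Arntl, Clock and Nr1d2. For Nr1d1 the BPA ranks belong to the summit in intron 1. With summits in place of peaks, 5 of 8 members were ahead in BPA, and the share over all promoters was not computed. With 2 libraries per group the smallest two-sided p of an exact permutation test is 0.33, so no test between groups was run. By fold the picture was thinner. The fold was higher in both BPA libraries for 9 of 9 members, as it was for 86.4% of all such promoters, and by rank of the fold 3 members (Per1, Per3 and Cry1) were ahead in BPA against 39.0% of all and 1 (Nr1d2) was ahead in the controls against 15.9%. Ranked only among promoter peaks, 5 members (Per1, Per2, Per3, Cry1 and Nr1d1) were ahead in BPA against 35.6% of all, and 0 in the controls against 24.7%.

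A pair of measures moved with this result and their part in it was not tested. The first was base composition. Of open promoters in the lowest, middle and highest tertiles of G+C content, 28.2%, 39.5% and 54.3% ranked better in BPA and 30.6%, 19.2% and 7.79% better in the controls. Clock, Per3, Cry1 and Cry2 were in the highest tertile, Arntl, Per1 and Nr1d2 in the middle one, and Nr1d1, whose gap was among the widest, in the lowest. The second was the endothelial promoters given above, open in 5 and 3 of 10 in the controls and 10 and 10 of 10 in BPA.

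Other genes of the clock were read in the same way. Of 21, 20 were open at the promoter in every library, and Arntl2 had no promoter peak in any. Over all coding genes 57.9% were. Of the 20, 11 ranked better in both BPA libraries, against 40.7% of all such promoters (Dbp, Tef, Nfil3, Bhlhe40, Bhlhe41, Csnk1d, Csnk1e, Timeless, Btrc, Usp2 and Noct) and 1 in both controls, against 18.7% (Fbxl21, an F-box protein that binds CRY). Among the D-box factors, the activator Tef ranked 7.81% and 9.63% in the controls and 1.05% and 0.460% in BPA. Dbp, an activator of the same family and an output gene of the loop, ranked 15.5% and 11.6% in the controls and 6.51% and 8.28% in BPA. Hlf, of the same family, overlapped between the groups at 26.3%, 14.4%, 23.6% and 11.7%. Nfil3, the repressor at D-boxes, ranked 27.5% and 38.3% in the controls and 10.5% and 7.28% in BPA. Bhlhe40, a repressor at E-boxes, ranked 16.1% and 16.6% in the controls and 6.88% and 2.84% in BPA. Rora, whose product activates Arntl, overlapped between the groups at 10.5%, 11.9%, 12.0% and 6.63%.

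Peak width, a measure of how far the open stretch ran past the threshold, did not follow the ranks. The best promoter peak was wider in both BPA libraries for Per1, Per2 and Nr1d1, 3 of the 9 members against 21.9% of all open promoters. It was wider in both controls for Clock, Cry1, Cry2 and Nr1d2, 4 of 9 against 15.1%. Per1 peaks were 730 and 665 bp wide in the controls and 1404 and 1425 bp in BPA. Cry1 peaks were 2563 and 2316 bp wide in the controls and 1331 and 2287 bp in BPA, so that this promoter had the better ranks in BPA and the wider peaks in the controls. Arntl and Per3 widths overlapped between the groups. The median over all open coding promoters was 1205, 976, 1005 and 1298 bp in Control 1, Control 2, BPA 1 and BPA 2.

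**Figure D2:**
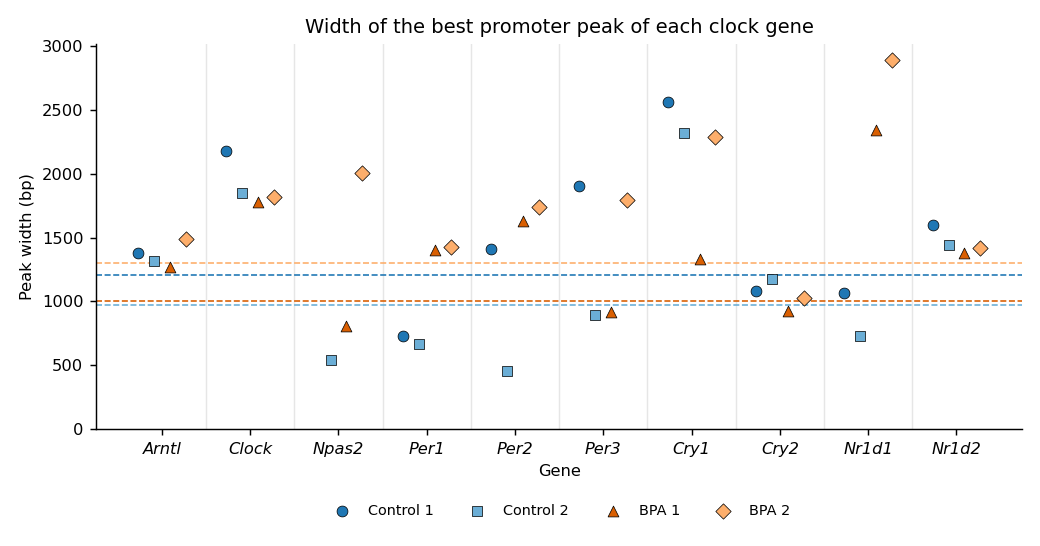
Width in bp of the best promoter peak of each clock gene, 1 point per library, with dashed lines at the median over all coding genes with a promoter peak. Both BPA points lie above both control points for Per1, Per2 and Nr1d1, and both control points lie above both BPA points for Clock, Cry1, Cry2 and Nr1d2.

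The loci of the 10 genes spanned 792 kb and held 61 and 66 peaks in the controls and 49 and 71 in BPA. The mean was 63.5 ± 3.54 in controls and 60 ± 15.6 in BPA (SD, n = 2), a difference smaller than the spread within BPA. The peaks merged into 91 regions, of which 10 covered a promoter of the gene itself, 4 a promoter of another gene (Mir6349, Vamp2, Vamp3 and Msl1), 12 an exon, 52 an intron alone and 13 the upstream 20 kb. A peak was found in all 4 libraries in 29 regions, in a single library in 23 and in other mixed sets in 28. Introns held most of the regions but few that recurred, with 8 of 52 in all 4 libraries and 19 of 52 in 1 library. Of the 13 upstream regions 7 were in all 4, and of these 3 lay at Per1 and 3 at Nr1d1. The like shares of introns and upstream regions over all coding genes were not computed.

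The loci differed in density. The window of Nr1d1 held 2.55, 2.19, 2.55 and 2.19 peaks per 10 kb in Control 1, Control 2, BPA 1 and BPA 2, denser than 99.4% to 99.9% of the windows of coding genes. That of Per1 held 1.61, 1.61, 1.93 and 1.93, denser than 96.8% to 99.0%. Both are short genes, with windows of 27.4 and 31.0 kb, so the start site weighs heavily in these values. The long gene Npas2, with a window of 189 kb, held 21 regions, 18 of them in introns. Arntl, with a window of 127 kb, held 20 regions, 15 of them in introns.

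**Figure D3:**
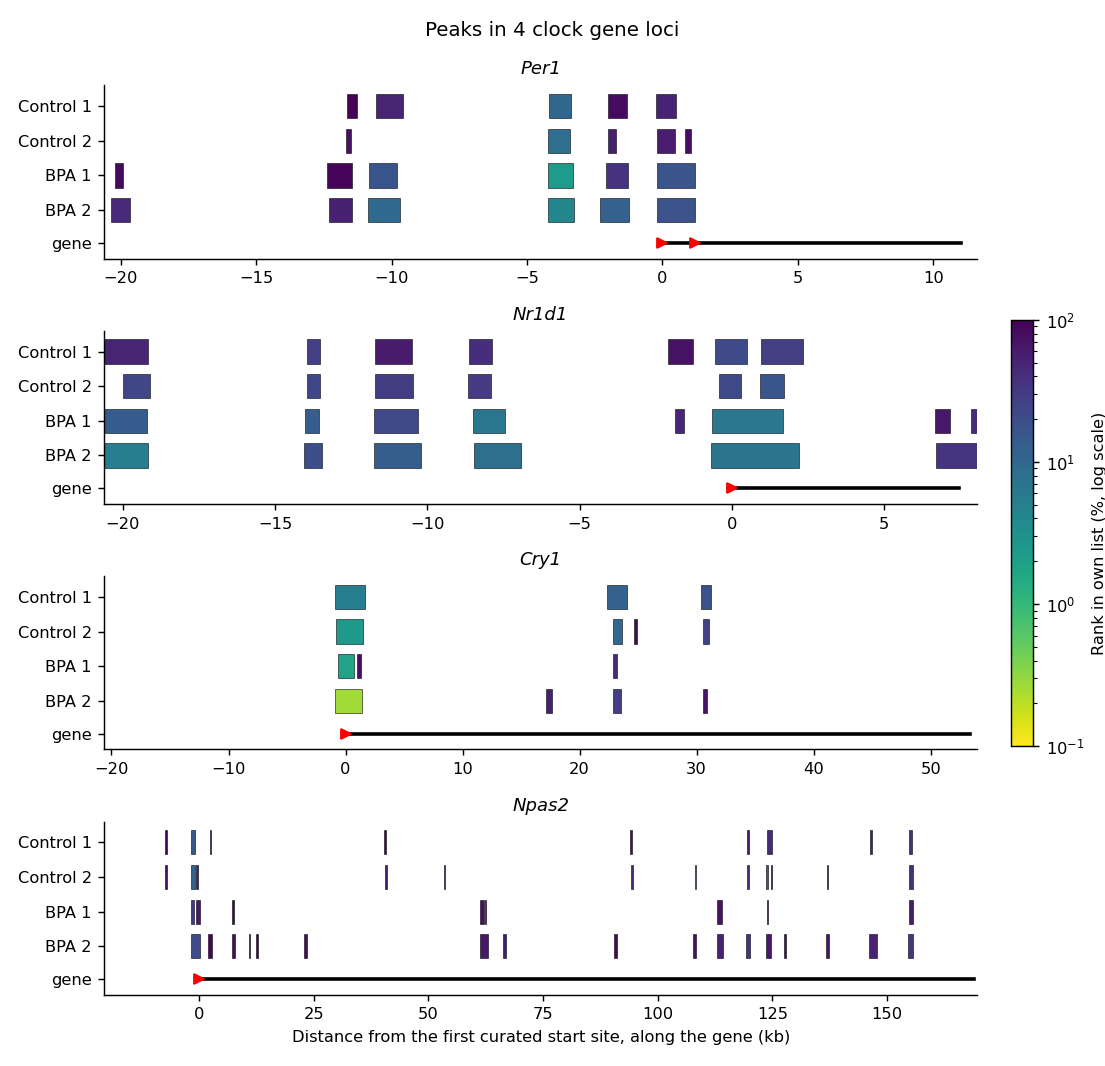
Peaks in the windows of Per1, Nr1d1, Cry1 and Npas2, 1 row per library, against the distance in kb from the first curated start site along the gene. Boxes span the peaks and their colour gives the rank in the list on a log scale, the black line is the gene, and red arrowheads are start sites. Peaks of Per1 and Nr1d1 crowd upstream of the start site, and in Nr1d1 the peaks over the start site and intron 1 are joined in both BPA libraries and apart in both controls.

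Outside promoters, 17 of 77 regions (22.1%) had a peak in all 4 libraries, against 20.6% in the windows of all coding genes. Of these 17, 11 ranked better in both BPA libraries, against 22.7% of such regions of all coding genes, and 3 better in both controls, against 30.5%. All 3 upstream regions of Nr1d1, all 3 regions inside Per2 and 2 of 3 upstream regions of Per1 were among the 11, and the others were 2 regions of Arntl and 1 of Cry2. Regions of 1 locus share their surroundings, so they are not separate observations of the treatment.

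**Figure D4:**
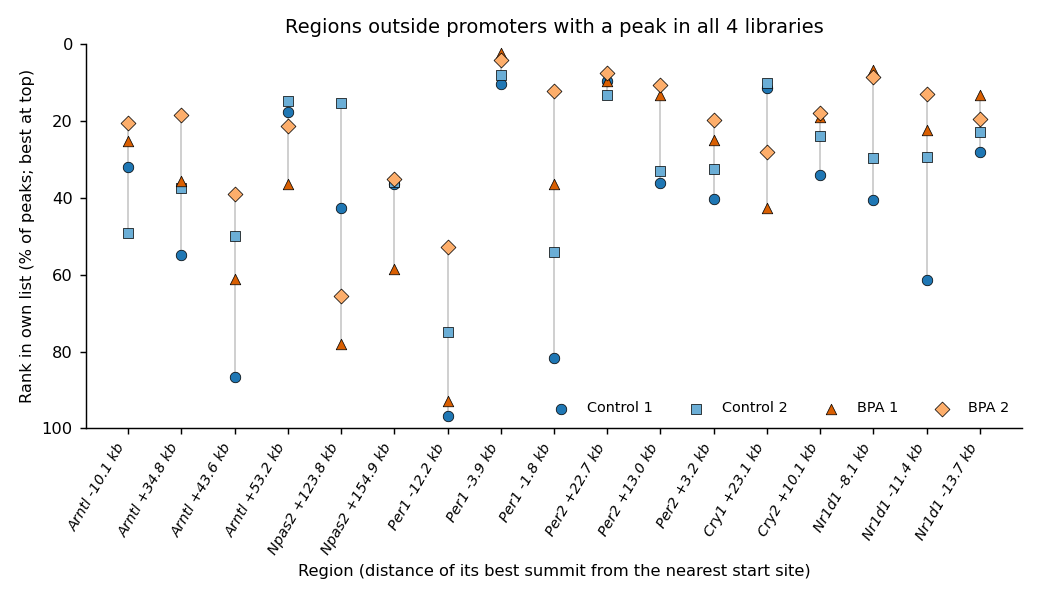
Rank in their own list, with the best at the top, of the 17 regions outside promoters that had a peak in all 4 libraries, labelled by the distance of the best summit from the nearest start site. Each point is 1 library and grey lines join the lowest and highest values. All 3 regions upstream of Nr1d1 and all 3 inside Per2 have both BPA points above both control points, and Cry1 at +23.1 kb has them below.

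The sequences around the summits of 4 of these sites, and of the intron 1 site in the merged promoter region of Nr1d1, are shown because they hold clock motifs. Capitals mark the matches, and the letters run 5′ to 3′ on the strand of the gene. The windows are Per1 at chr11:69094861-69095160 on the plus strand and, on the minus strand, Nr1d1 in intron 1 at chr11:98773834-98774133, Nr1d1 upstream at chr11:98789043-98789143, Cry2 at chr2:92423781-92424080 and Cry1 in intron 1 at chr10:85161897-85161997.
Per1, −3938 bp: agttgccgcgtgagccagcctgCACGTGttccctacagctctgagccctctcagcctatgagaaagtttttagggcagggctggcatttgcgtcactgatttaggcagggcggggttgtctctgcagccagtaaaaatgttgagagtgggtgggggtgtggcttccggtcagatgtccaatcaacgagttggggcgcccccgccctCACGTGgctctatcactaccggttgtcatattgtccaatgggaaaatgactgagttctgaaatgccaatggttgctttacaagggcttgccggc
Nr1d1, intron 1: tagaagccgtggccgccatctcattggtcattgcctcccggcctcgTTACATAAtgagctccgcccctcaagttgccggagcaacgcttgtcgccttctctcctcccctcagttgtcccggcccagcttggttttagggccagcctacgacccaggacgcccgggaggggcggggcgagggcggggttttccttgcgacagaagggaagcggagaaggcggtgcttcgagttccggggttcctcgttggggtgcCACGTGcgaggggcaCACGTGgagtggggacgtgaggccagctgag
Nr1d1, −13716 bp: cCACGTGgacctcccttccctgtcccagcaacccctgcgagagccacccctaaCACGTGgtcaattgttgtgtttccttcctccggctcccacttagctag
Cry2, intron 3: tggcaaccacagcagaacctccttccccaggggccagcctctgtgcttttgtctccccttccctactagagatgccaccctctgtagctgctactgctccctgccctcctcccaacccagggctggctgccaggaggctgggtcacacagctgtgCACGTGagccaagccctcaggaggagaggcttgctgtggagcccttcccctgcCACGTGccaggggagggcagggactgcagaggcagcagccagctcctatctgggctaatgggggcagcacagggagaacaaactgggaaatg
Cry1, intron 1: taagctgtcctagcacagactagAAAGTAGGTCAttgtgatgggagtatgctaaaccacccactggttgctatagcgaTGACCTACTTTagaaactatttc

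A region upstream of Per1 had the best rank of all sites outside promoters in 3 libraries, Control 1 excepted, where the Per2 region in intron 9 was ahead. Its summit lay at −3938 bp, and it ranked 10.5% and 8.16% in the controls and 2.33% and 4.10% in BPA, ahead of the promoter of the gene in each library. It held 2 E-boxes, at −128 and +56 from the summit. A second upstream region, at −1800 bp, ranked 81.7% and 54.1% in the controls and 36.5% and 12.2% in BPA, and held a cyclic AMP response element at +53 from its summit. Per1 is known to respond to cyclic AMP signals.

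Upstream of Nr1d1, a region with its summit at −13716 bp ranked 28.1% and 22.9% in the controls and 13.3% and 19.4% in BPA, and held 2 E-boxes, at −49 and +3. A nearer region, at −8108 bp, ranked 40.6% and 29.7% in the controls and 6.68% and 8.53% in BPA, with an E-box at −62. The intron 1 site, part of the merged promoter region described above, held 2 E-boxes at +105 and +120 and a D-box at −103. Every region of this locus found in all 4 libraries, with an E-box or without, ranked better in both BPA libraries.

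Inside Per2, a region in intron 9 ranked 9.75% and 13.2% in the controls and 9.62% and 7.66% in BPA, a narrow gap. A region across an exon with its summit in intron 4 ranked 36.3% and 33.0% in the controls and 13.3% and 10.7% in BPA, with no overlap. In Cry2, a region with its summit in intron 3 ranked 34.04% and 23.9% in the controls and 19.1% and 18.0% in BPA, with 2 E-boxes at +6 and +59. The transcript D930015M05Rik overlaps the same stretch, and accessibility carries no strand.

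Cry1 went the other way inside the gene. The region in its intron 1, with the summit at +23107 bp, ranked 11.4% and 10.1% in the controls and 42.7% and 28.2% in BPA, so both controls were ahead while the promoter of the same gene was ahead in BPA. Its window held 2 ROR/REV-ERB elements in opposite orientation, at −27 and +28 from the summit, and a D-box at −55, of which only the end falls, unmarked, in the stretch shown. The intron of Cry1 is known to carry such elements, through which REV-ERB and ROR proteins act on the gene. These 2 matches and the one printed above for Arntl had the same letters, read on either strand. So had a match at −120 from the summit of a region in intron 2 of Arntl. That region was in all 4 libraries and overlapped between the groups, at 86.6% and 50.1% in the controls and 61.0% and 38.9% in BPA. The other regions ahead in both controls were a different one in intron 2 of Arntl and one in intron 7 of Npas2. That of Arntl ranked 17.7% and 14.7% in the controls and 36.5% and 21.2% in BPA. That of Npas2 ranked 42.7% and 15.4% in the controls and 78.1% and 65.5% in BPA. Upstream of Arntl, at −10057 bp, a region ranked 32.1% and 49.3% in the controls and 25.2% and 20.6% in BPA. In intron 19 of Npas2, a region overlapped between the groups, at 36.3% and 35.9% in the controls and 58.6% and 35.2% in BPA.

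Of 25 regions with a peak in all 4 libraries, promoters included and Per2 left out, 6 (24.0%) held an E-box. The window was 300 bases around the best summit. Over 147153 merged regions of the genome, those found in a single library included, 4.67% held an E-box there. The 4 such regions of Per2 held no E-box along their length, so with Per2 the count was 6 of 29. The promoter region of Per2 held a D-box at −48 from its summit. Among the 25, the variant was in 3, a D-box in 2, a cyclic AMP response element in 2 and a ROR/REV-ERB element in 3. Over all merged regions the shares were 4.40%, 2.42%, 0.548% and 0.684% in the same order. Of the 2 cyclic AMP response elements, 1 lay at the promoter of another gene, Vamp3, in the window of Per3. The promoter of Msl1, in the window of Nr1d1, was also among the 25. The 6 with an E-box were the promoter region of Cry1, the merged promoter and intron region and 2 upstream regions of Nr1d1, the Per1 region at −3938 bp and the Cry2 region in intron 3. The 25 regions lie in 9 loci and were not drawn at random, so the shares are given as a description.

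Few regions followed the group by presence. A peak in both BPA libraries and neither control was found in 5 of the 91 regions, against 9.72% of regions in the windows of all coding genes, and the reverse in 6, against 4.64%. Most were weak. The 5 lay in intron 2 of Arntl, at 3 places in Npas2 and upstream of Per1 at −20012 bp, with ranks of 44.4% to 99.7%. Of the 6, 3 lay at Npas2, 1 of them at the start of Mir6349, 2 at Cry2 and 1 in intron 1 of Nr1d2. Of the Cry2 pair, 1 had its summit past the gene end. Its Control 1 peak reached the last exon, and its Control 2 peak lay wholly past the gene end, outside the window. The strongest of the 6 was in Cry2, across an exon with its summit in intron 5, and ranked 39.3% in Control 1 and 16.7% in Control 2. Npas2 thus held 3 regions of each kind.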

How the data were processed

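Peak lists of 4 ATAC-seq libraries were analysed. The authors trimmed reads with Trim Galore, mapped them to mm10 with Bowtie2 2.3.5.1, dropped duplicates and reads without a unique place, and ran MACS2 2.2.7.1 on every library separately. As deposited, the score is the −log10 q-value multiplied by 10 without its decimals. The authors' fold is the summit pile-up divided by the local background, and both −log10 columns (p and q) are deposited output of MACS2's Poisson model. The q-value threshold was 0.05. Read totals were not given, so the depth is unknown and no interval was computed. Pile-up and background were solved from fold and p-value, and matched for 100% of peaks within a relative error of 1e-04. Mapping an outbred stock to mm10 can lose reads at variants.

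Start sites came from 45756 curated RefSeq transcripts on GRCm38.p6. A promoter was 500 bp either side of a start site, and its best peak the one with the lowest rank by −log10 q-value. Peaks of the libraries were merged at 1 bp of overlap, and a region was classed as own promoter, promoter of another gene, exon, intron or upstream, in that order. Regions were named when they followed the group by presence, or when they were outside promoters in all 4 libraries and among the 2 best of their gene by the worst rank. Alternatives were a minimum −log10 q-value of 5, the best 20000 peaks, equal numbers of peaks, summits in place of peaks, promoters of 1000 bp, the gene body alone, 50% cover, rank by fold and each library left out. The rank among promoter peaks was added after seeing the data. The members, lists and motifs were chosen with earlier results of these data known. 1 gene of the list of other clock genes is not reported here. Scripts were tested on simulated data and run with Python 3.11.15, numpy 2.4.6, pandas 2.3.3 and scipy 1.17.1.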

Additional observations from a re-analysis of the deposited data

How the results depend on the processing

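Of 69 alternative values, 50 kept the direction and, within a tolerance, the size of the reported one, 16 moved and 3 reversed. The count of promoters open in every library, reported as 9, ranged from 8 to 10. With summits in place of peaks, and among the best 20000 peaks, it was 8, and 5 members were ahead in BPA. Ranked by fold, 3 members were ahead in BPA and 1 in the controls, and with promoters of 1000 bp 1 was ahead in the controls. At a −log10 q-value of at least 5, regions in both controls and neither BPA library fell to 2, and the difference in peaks per library, BPA minus control, reversed from −3.5 to 6.5. Among the best 20000 peaks there were 31 regions, 9 in both BPA libraries alone and 3 in both controls alone, and the difference reversed to 5.5. With 50% cover, 9 regions were in both BPA libraries alone. Leaving out 1 library at a time, members ahead in the controls ranged from 0 to 3, BPA regions from 7 to 17, control regions from 7 to 14, and the difference from −14.5 to 7.5, reversed without BPA 1. Members ahead in BPA ranged from 6 to 8. With a library left out, the groups separate more easily. Apart from rank by fold, the shares over all coding promoters or regions were not computed at these settings. These counts therefore cannot be set against the shares given above. The cause of the changes was not tested. No paired analysis was possible because the replicate numbers tie no animals across groups and no test was run.

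BPA 1 had the fewest peaks and the lowest median pile-up, so a region missing there is not shown to be closed. Regions in both BPA libraries alone numbered 17 without it, control regions 14 without Control 1, and members ahead in the controls 3 without Control 2. Ranks within a list do not measure absolute accessibility. The hour of tissue collection, on which the clock depends, was not given and cannot be told apart from the groups.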
